A study of Homo sapiens with 12 samples.

Results

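PANC-1 is an established human cell line grown from a pancreatic ductal adenocarcinoma. The values described here are those of its 3 libraries treated with vehicle, out of the 12 RNA-seq libraries of the study. They were chosen by their label alone, and all genes of the table were kept and ranked by their mean normalised read count. Of the 60617 genes listed, 22631 had at least 1 read in a vehicle library. The cells were wild type, received DMSO, the solvent of the study's compound, and were collected after 48 h. The other 9 libraries came from the same line after transfection with siRNA against the myoferlin gene MYOF, after transfection with a control siRNA (GL3), or after 50 nM of the myoferlin-binding compound WJ460, with 3 libraries each. They are used here only to show the noise between replicates and whether a gene with few or no reads under DMSO had reads elsewhere. PANC-1 is 1 line grown without stromal cells, so the levels describe this culture and no tumour.

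Pancreatic ducts are lined by epithelial cells that hold each other through cadherins, desmosomes and tight junctions, contain simple keratins, and secrete mucus and bicarbonate. Carcinoma cells can lose part of this programme and take up genes of mesenchymal cells, such as the filament protein vimentin, under repressors of the ZEB, SNAI and TWIST families. Loss of the CDKN2A locus and of SMAD4 are among the recurrent genetic lesions of this cancer, and extra copies of a stretch of chromosome 19 around PAF1 and AKT2 have been described in PANC-1 itself. Gene levels are given below on 2 scales. The normalised read count is the deposited value and depends on transcript length. TPM divides reads by the length of a gene's main transcript, scales the result to the same total in every library, and is used whenever genes are compared with each other. A gene was counted as expressed from a mean of 1 TPM, and ± is the SD over the 3 libraries.

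The libraries held 13997453, 12335147 and 13813185 reads in genes, 40145785 in all. A gene with 0 reads may still have a true level of up to 3 reads in that total, from counting error only. Of the 37986 genes without a read under DMSO, 7137 had a read in another library. In the lists below these included 11 of 17 ductal genes, 14 of 31 tumour subtype genes and 2 of 8 islet hormone genes. They also included 9 of 12 receptor tyrosine kinase genes and 10 of 15 nuclear receptor genes, so no read here need not mean a gene silent in the line. Replicate 1 of the control siRNA and of the MYOF siRNA had a read in 23060 and 22706 genes. Each of the other libraries had a read in 19144 to 19754 genes. The reads elsewhere were not split by library here, so they may come mostly from these replicates. All 3 DMSO libraries carried the same one of 2 batch labels, which they share with 7 of the other libraries. The labels do not say whether they came from separate cultures, so the spread between them may be technical. Over 12192 to 12262 genes, pairs of DMSO libraries differed by 1.49 to 2.34 times the sampling noise, so none of them was a copy of another's counts. Whether the same RNA was sequenced again cannot be told from this measure, for lack of a known technical replicate. Pairs within the other groups differed by 49.4 to 78.8 times where replicate 1 of either siRNA group was in the pair. The remaining pairs differed by 3.79 to 12.9 times. Expressed protein-coding genes had a median coefficient of variation of 4.95%. The counting error computed from their mean reads had a median of 4.61%. A spread measured over 3 libraries tends to fall under the true one, so these values do not show how much exceeds counting error. The coefficient of variation fell with level, at 10.1% from 1 to under 10 TPM, 4.41% from 10 to under 100 TPM and 2.78% above. Among the 9476 whose normalised counts averaged 100 or more, the coefficient passed 20% in 50, led by SCAMP5 (30.9%), COL6A2 (28.7%) and ZNF358 (28.6%).

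Low values need a check before they are read as a lack of RNA. Several genes that every cell uses were listed near 0, such as the translation initiation helicase gene EIF4A1 at 45 reads and 1.45 TPM, the ribosomal protein gene RPS10 at 1.81 TPM and the mitochondrial ribosome gene MRPL53 at 0 reads. Exons of another gene on the same strand cover 100% of the EIF4A1 transcript, 84% of RPS10 and 99.2% of MRPL53 in the annotation. Of the 729 protein-coding genes covered to at least 90% in this way, 64.9% had no read and 9.19% were expressed, whereas of the 17024 without such cover 25.8% had no read and 58.3% were expressed. Of the 221 genes without a read in the lists below, 203 had no such cover and 2 had 50% or more (CYP3A7, and INS, which encodes insulin). The members covered to 50% or more but with reads and under 1 TPM included ADORA2A, CD68, CELA3A, IL10RB, RNF43 and TAGLN, and their levels are uncertain. The study's methods name Salmon for quantification and DESeq2 for later steps. Salmon gene estimates need not be whole numbers, whereas every deposited value here corresponds to whole reads, which estimates rounded before scaling would also give. Which step made the table, and how it treated shared exons, was not tested, so a low value of a gene that shares exons is uncertain.

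In all, 13507 genes were expressed. They comprised 11271 of 19882 protein-coding genes (56.7%) and 1279 of 16672 long non-coding RNA genes. Counts of expressed members in the lists below are to be read beside this share of protein-coding genes. A count near it does not set a list apart. Among protein-coding genes, 5277 (26.5%) had no read and 3334 had reads but stayed under 1 TPM. The median expressed protein-coding gene had 22.8 TPM. Between 1 and 10 TPM lay 3280 genes, between 10 and 100 TPM 6290, between 100 and 1000 TPM 1580, and at or above 1000 TPM 121. Long non-coding RNAs held 0.746% of the normalised counts. By normalised count, which depends on length, the first 3 were NORAD, which binds PUMILIO proteins, at 3862, the snoRNA host gene SNHG29 at 3691, and LINC00261, a neighbour of FOXA2, at 2936. Per length the order differed, with SNHG29 at 1384 TPM, NORAD at 119 TPM and LINC00261 at 99.3 TPM, and the snoRNA host gene SNHG16 at 549 TPM above both of them.

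The most abundant RNAs served translation, the cytoskeleton, respiration and glycolysis. EEF1A1, the factor that brings aminoacyl-tRNA to the ribosome, led with 159493, 152609 and 154953 normalised counts in replicates 1, 2 and 3. The ribosomal protein gene RPS16 followed with 100654, 104092 and 104716. MT-CO1, a mitochondrially encoded subunit of cytochrome c oxidase, had 92831, 93798 and 91022. The ranges of these 3 genes did not overlap, and together they took 2.57 ± 0.0104% of all normalised counts. Long transcripts gather more reads, and on the TPM scale RPS16 ranked 1, MT-CO2 2, MT-CO1 3, EEF1A1 7 and AHNAK, the longest of these, 357. The fourth gene was VIM, which encodes vimentin, with 78991, 77751 and 77030 normalised counts. Next came the actin gene ACTB at 73436 ± 601, the mitochondrial complex I gene MT-ND4 at 67814 ± 2560 and the glycolytic gene GAPDH at 60972 ± 717.

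The rest of the 30 most abundant genes fell into few roles. Chaperones were HSP90AB1 (59545 normalised counts), HSPA8 (53523) and HSP90AA1 (26344). The cytoskeleton added ACTG1 (56156), ACTN4 (47035), TUBB (44658), TUBA1B (39895) and the scaffold gene AHNAK (45345), whose libraries at 48770, 46339 and 40926 spread most in relative terms among the 30. Glycolysis added ENO1 (47608) and PKM (35611). FBL and NPM1, nucleolar proteins of ribosome assembly, had 48888 and 27249. EIF4G2, a translation initiation factor, had 47110, RPLP0 of the ribosomal stalk 29962 and the RNA-binding gene HNRNPA2B1 31103. PPIA (36662), PSMC4 of the proteasome (43146), the kinase gene AKT2 (37991), ANXA2 (30967), the fatty acid desaturase gene SCD (27335) and the mitochondrial genes MT-CO3, MT-CO2 and MT-CYB (45263, 44740 and 29523) completed them. Many of these genes have near-identical processed copies or paralogs, such as EEF1A1, ACTB with ACTG1, the tubulins and the ribosomal protein genes, and their split between copies is uncertain. The 100 most abundant genes held 19.9 ± 0.0644% of the normalised counts, and 886 genes held 50% of them. The 13 mitochondrially encoded protein genes took 2.85 ± 0.0775% and 76 cytosolic ribosomal protein genes 4.94 ± 0.0315%.

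**Figure D1:**
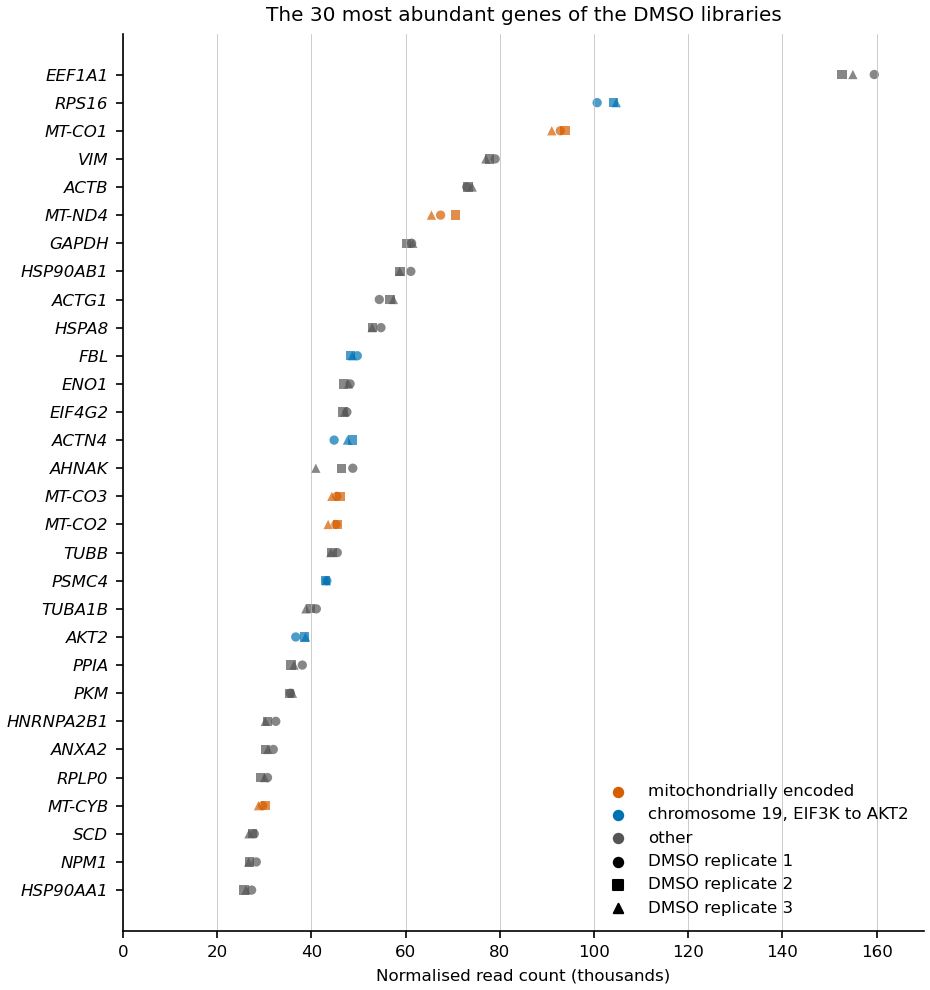
Normalised read count (the axis is in units of kilo-counts) of the 30 most abundant genes in each of the 3 DMSO libraries, with mitochondrially encoded genes and genes of chromosome 19 between EIF3K and AKT2 in their own colours. EEF1A1 stands at 155685 normalised counts on average, and 5 genes each belong to the mitochondrial genome and to the chromosome 19 interval.

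Promoter sequence differed between the levels. RefSeq promoters of GRCh38.p14, from 250 bases before to 50 after the annotated start, matched 14870 of the 19882 protein-coding genes by symbol. Genes without a read held a median of 5 CpG pairs in these 300 bases, those with reads but under 1 TPM 16, and the expressed groups 26 to 28. The letters GGGCGG, searched on both strands before the start, stood in 27.2% of promoters without a read and in 68.8% to 71.1% of the expressed groups, against 56.9% of all matched promoters. TATAAA, searched on the gene's strand from 40 to 15 bases before the start, stood in 9.34% of promoters without a read, in 0.875% of those from 10 to under 100 TPM and in 5.49% of the 91 from 1000 TPM, against 3.48% of all. CTTT within 6 bases before and 10 after the start, the pyrimidine-rich start of many translation genes, stood in 34 of 61 matched ribosomal protein genes and in 6.82% of all promoters. The annotated start is not always the start used, and a match is a run of letters and no binding site.

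The following windows, from 60 bases before to 20 after the start, are shown because they carry these letters in the most abundant genes and in genes of other pancreatic cells that had no read. Capitals mark the searched letters. EEF1A1 (chr6:73521013-73521092, minus strand), RPS16 (chr19:39435930-39436009, minus strand) and FBL (chr19:39846360-39846439, minus strand) hold CTTT at or beside the start. RPLP0 (chr12:120201092-120201171, minus strand) and ANXA2 (chr15:60397967-60398046, minus strand) hold TATAAA. The islet hormone gene GCG (chr2:162152228-162152307, minus strand) and the acinar lipase gene PNLIP (chr10:116545871-116545950, plus strand), both with 0 reads, hold TATAAA too.
EEF1A1: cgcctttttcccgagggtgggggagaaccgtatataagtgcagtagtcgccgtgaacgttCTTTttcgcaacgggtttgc
RPS16: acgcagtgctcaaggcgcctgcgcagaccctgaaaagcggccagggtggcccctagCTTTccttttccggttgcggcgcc
FBL: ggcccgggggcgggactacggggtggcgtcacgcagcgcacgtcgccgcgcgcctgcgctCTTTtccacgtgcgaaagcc
RPLP0: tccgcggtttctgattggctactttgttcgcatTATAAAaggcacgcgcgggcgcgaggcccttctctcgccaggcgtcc
ANXA2: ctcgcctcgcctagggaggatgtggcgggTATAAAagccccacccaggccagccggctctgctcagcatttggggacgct
GCG: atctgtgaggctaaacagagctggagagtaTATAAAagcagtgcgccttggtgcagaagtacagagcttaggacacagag
PNLIP: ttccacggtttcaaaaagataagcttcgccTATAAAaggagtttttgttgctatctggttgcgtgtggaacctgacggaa

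Of the 10 ductal markers, 6 were expressed in these cells labelled as pancreatic carcinoma, namely EPCAM, KRT8, KRT18, KRT19, MUC1 and SOX9. CDH1 and KRT7 had reads but stayed under 1 TPM, and CFTR had no read. Of the 6 mesenchymal markers, VIM, CDH2 and ZEB1 were expressed, FN1 had 3 reads, and SNAI2 and TWIST1 had none. The label of carcinoma cells of ductal origin thus stood beside a keratin pair and SOX9, but without several genes that define differentiated ducts.

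Keratins form paired filaments of a type I and a type II protein. KRT18, the type I keratin of simple epithelia, had 1693, 1716 and 1728 TPM in replicates 1 to 3, and its partner KRT8 had 837, 916 and 910 TPM. KRT18 stood 1.93-fold above KRT8 in TPM and was higher in each library. KRT19, a ductal type I keratin, had 189, 198 and 197 TPM, 8.8-fold under KRT18. The next keratins were far lower, with KRT10 at 9.12 ± 0.457 TPM, KRT80 at 6.46 ± 0.285 TPM and KRT15 at 2.86 ± 0.779 TPM. KRT7, the type II keratin of ducts, had 0.4, 0.904 and 0.807 TPM from 20 reads in all, under 1 TPM in every library. KRT81 and KRT86 had 5 reads and 1 read. The simple keratins KRT20 and KRT23 and the basal or stratified keratins KRT1, KRT4, KRT5, KRT6A, KRT6B, KRT6C, KRT13, KRT14, KRT16 and KRT17 had no read. KRT8 and KRT18 have many processed copies in the genome, so their exact level is uncertain.

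Junction genes were expressed in 13 of 21 cases (61.9%, against 56.7% of all protein-coding genes), at low to moderate levels. Proteins of the inner face of junctions led, with the catenin genes CTNND1 at 101, 95.7 and 101 TPM and JUP at 67.9, 75.1 and 76.5 TPM. Tight junction genes followed, with TJP1 at 37.8 ± 1.1 TPM, CLDN12 at 27.8 ± 1.85 TPM, OCLN at 23.9 ± 0.467 TPM and CLDN7 at 11.1 ± 1.47 TPM. The epithelial surface molecule EPCAM had 7.47, 7 and 7.63 TPM, and the desmosomal plakin gene DSP had a mean of 1.31 TPM. CDH1, which encodes E-cadherin, had 38 reads and 0.446 ± 0.123 TPM, under 1 TPM in every library. Of 24 ductal and pancreatic transcription factors, 7 were expressed. SOX9, a regulator of ductal and progenitor cells, had 77.8, 78.9 and 78.3 TPM and FOXA2, a pioneer factor of endoderm, 53.5, 55.2 and 53.3 TPM. GATA4 had 25.7 ± 1.49 TPM, the epithelial splicing regulator ESRP2 20.1 ± 0.519 TPM, the Notch target HES1 14.4 ± 1.89 TPM, the pancreatic homeobox gene PDX1 4.31 ± 0.798 TPM and KLF5 1.74 ± 0.112 TPM. GATA6 had 5 reads, and HNF4A, ELF3, PTF1A and TP63 had none.

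Genes of ductal secretion were mostly at or near 0. Only the apical scaffold gene SLC9A3R1 (58.1 ± 0.494 TPM) and the carbonic anhydrase gene CA2 (4.34 ± 0.348 TPM) were expressed of 16, while the chloride channel gene CFTR, CA9, PROM1, SLPI, PIGR and MMP7 had no read. Of 13 mucin and trefoil genes, MUC1 had 21.6, 23.1 and 21.1 TPM, TFF3 2.2 ± 0.376 TPM and MUC3A 1.47 ± 0.0811 TPM, and MUC2, MUC6, MUC13 and TFF2 had no read. Published lists of the basal-like and classical subtypes of pancreatic tumours were both largely absent. Of 25 basal-like genes 4 were expressed, SLC2A1 at 39.1 TPM, S100A2 at 13 TPM, CTSV at 4.75 TPM and KRT15, and 15 had no read, among them LY6D, SPRR3, SERPINB3, SERPINB4, VGLL1 and FAM83A. Of 24 classical genes only AGR2 and TFF3 were expressed and 16 had no read, among them CTSE, CEACAM6, TSPAN8, ANXA10, AGR3, REG4 and VSIG2. AGR2, a protein disulfide isomerase of secretory epithelium, had 562, 532 and 542 TPM, so that 1 gene carried nearly all of the classical list.

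Mesenchymal genes were expressed in 31 of 45 cases (68.9%), against 56.7% of all protein-coding genes. VIM had 6059, 6007 and 5964 TPM, 3.51-fold above KRT18 and 6.78-fold above KRT8, and the 2 filament systems did not overlap in any library. The collagen chaperone gene SERPINH1 had 196, 197 and 195 TPM, the matrix protein gene TGFBI 99.8, 99.4 and 99.5 TPM, and the crosslinking enzyme gene LOXL2 22.9 ± 2.2 TPM. SPARC was low at 3.05 ± 0.299 TPM. FN1, which encodes fibronectin, had 3 reads in all, and VCAN and TNC had none. Of 13 surface genes of this state, 10 were expressed, with a median of 73.6 TPM, and 3 had reads but stayed under 1 TPM. The highest of them are given first. CD44, the hyaluronan receptor, had 714, 694 and 706 TPM, CAV1 of caveolae 616, 592 and 609 TPM, and NT5E, which makes adenosine outside the cell, 505, 477 and 489 TPM. AXL followed at 135 ± 2.49 TPM and CAV2 at 100 ± 2.7 TPM. CDH2, which encodes N-cadherin, had only 1.3, 1.74 and 1.35 TPM, so that neither classical cadherin of the switch reached 2 TPM.

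Repressors of the epithelial state were led by ZEB1 at 22.5, 22 and 21.6 TPM. SNAI1 had 5.92, 8.29 and 10.4 TPM, a wide spread for its level. SOX4 had 15.1 ± 0.509 TPM, FOXC2 12.7 ± 1.12 TPM, FOXC1 6.27 ± 0.41 TPM and TWIST2 4.57 ± 0.785 TPM, and the ranges of SNAI1 and FOXC1 overlapped. ZEB2 sat on the line of 1 TPM with 1.05, 0.872 and 1.1 TPM. SNAI2, SNAI3 and TWIST1 had no read. Contractile and calcium-binding genes were mixed. S100A6 had 3662, 3818 and 3819 TPM, TPM2 578 ± 25.4 TPM, TAGLN2 384 ± 7.75 TPM, TPM1 285 ± 3.47 TPM and S100A4 190 ± 3.76 TPM. The smooth muscle genes ACTA2 and CNN1 stayed under 1 TPM, at 0.252 and 0.727 TPM.

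**Figure D2:**
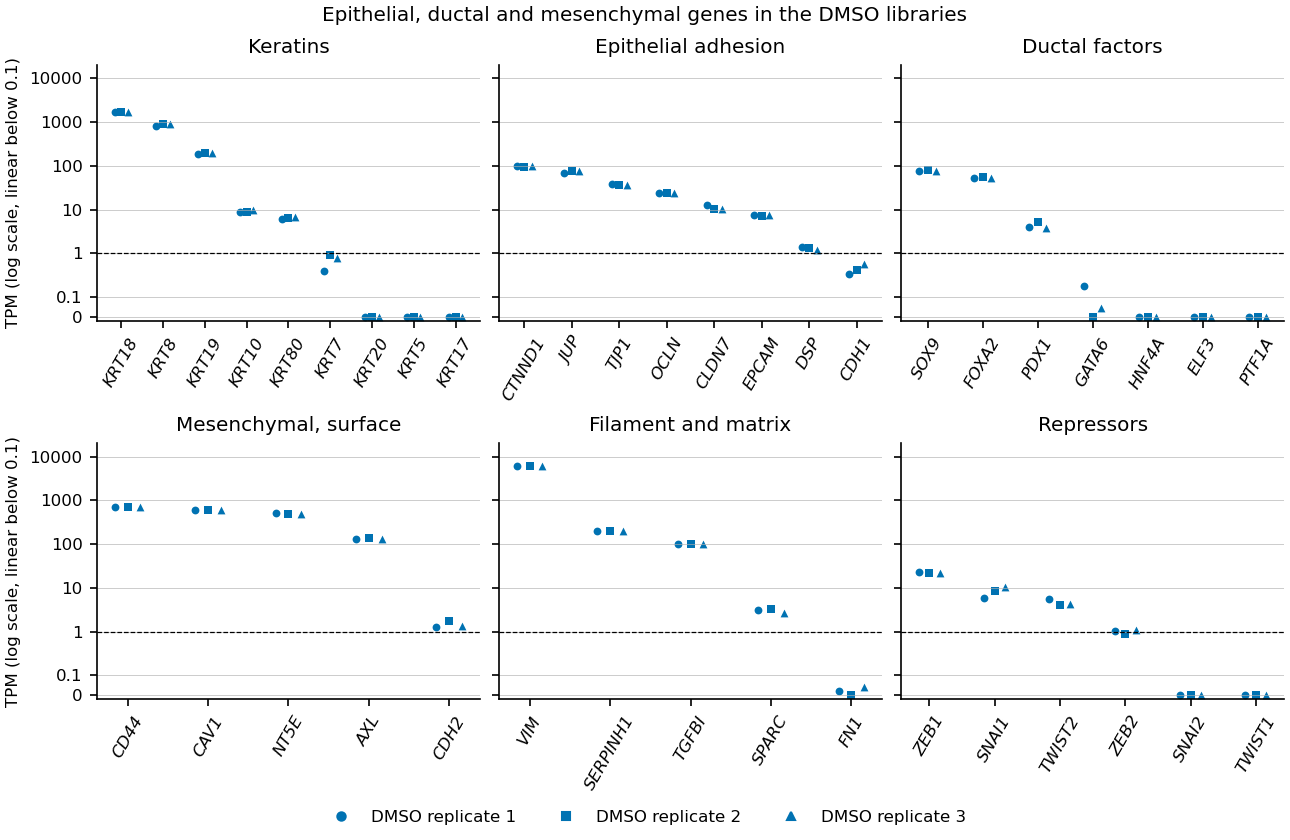
TPM of keratin, junction, ductal and mesenchymal genes in each of the 3 DMSO libraries, on a log axis that is linear below 0.1 TPM, with a dashed line at 1 TPM. KRT18, KRT8 and VIM lie near or above 1000 TPM, whereas KRT7, CDH1 and GATA6 lie under 1 TPM and KRT20, ELF3, SNAI2 and TWIST1 at 0.

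Markers of other cells of the pancreas were at or near 0. The summed level of the 15 leukocyte genes was 1.24 to 1.91 TPM per library, with PTPRC, CD3D, CD3E, CD2, MS4A1, CSF1R, NKG7, GNLY, CD163 and FCGR3A at 0 reads. The 10 endothelial genes summed to 2.65 to 3.54 TPM, nearly all from the transcription factor gene ERG at 3.35, 2.43 and 2.61 TPM, while PECAM1, KDR, CLDN5, EMCN and ROBO4 had no read. None of 5 glial genes was expressed, with GFAP at 2 reads and SOX10 and S100B at none. Of the 20 digestive enzyme genes of acinar cells only PRSS3, a trypsinogen made in several tissues, was expressed (2.91 ± 0.679 TPM). CPA1, CPB1, CELA2A, CELA2B, AMY2A, AMY2B, PNLIP, CTRB1, CTRB2, PLA2G1B, CLPS and PNLIPRP1 had no read, nor had the acinar secretory genes REG1A, REG1B, REG3A, SPINK1, GP2, SYCN and RBPJL.

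The islet hormone genes INS, GCG, SST, PPY, GHRL, IAPP, TTR and UCN3 all had 0 reads. Some genes of regulated secretion were nevertheless present, with the vesicle protein gene SYP at 15.1, 15.8 and 16.7 TPM, CHGB at 2.08 ± 0.335 TPM and SCG5 at 1.65 ± 0.116 TPM, whereas CHGA, PCSK1, PCSK2, SLC30A8 and G6PC2 had no read. Among 11 islet regulators only MAFA was expressed (1.77, 2.13 and 1.41 TPM), and NEUROD1, NEUROG3, NKX2-2, PAX4, INSM1 and RFX6 had no read. In bulk RNA, fewer cells of a type and less RNA per cell cannot be told apart. Of 13 fibroblast genes 3 were expressed. THY1 had 31.4, 29.4 and 28.9 TPM and COL1A1 6.68, 7.39 and 7.52 TPM, while PDGFRB lay across the line with 0.742, 1.16 and 1.15 TPM. COL6A3 had 0.316 TPM, and COL2A1 and COL3A1 had 7 and 4 reads. DCN, LUM, PDGFRA, FAP, PDPN, POSTN and COL1A2 had no read.

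Of 159 genes for secreted and matrix proteins, 90 were expressed (56.6%), a share near that of all protein-coding genes, and together they took 1.03 ± 0.0145% of the normalised counts. Growth factors were led by CCN1, a matricellular protein, at 620, 617 and 612 TPM, by HDGF at 610, 585 and 585 TPM, and by the heparin-binding factor gene MDK at 387, 408 and 410 TPM. CCN1 and HDGF did not overlap, but were within 1.04-fold. Behind them came GRN at 88.3 ± 4.71 TPM, CCN2 at 83.3 ± 5.45 TPM, the endothelin gene EDN1 at 53.7 ± 0.474 TPM, VEGFB at 41.2 ± 2.3 TPM, TGFB1 at 37.6 ± 2.77 TPM, INHBB at 36.1 ± 1.83 TPM and VEGFA at 28.2 ± 1.07 TPM. GRN and CCN2 overlapped, as did VEGFB with TGFB1. EGF, EPGN, IGF1, BMP4 and CCN3 had no read, and the EGF receptor ligand genes AREG and TGFA had 4 and 7 reads.

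Inhibitors of Wnt signalling stood high among morphogen genes. DKK1, which blocks the Wnt co-receptors, had 600, 598 and 587 TPM, SFRP1, which binds Wnt proteins, 102, 108 and 106 TPM, and DKK3 51.8 ± 1.31 TPM. The ligands WNT7B and WNT5B had means of 33.6 and 30.5 TPM with overlapping ranges. SEMA3C had 64.7 ± 0.208 TPM, FSTL1 28.3 ± 1.5 TPM, the Notch ligand gene JAG1 12.9 ± 0.559 TPM, FSTL3 12.1 ± 0.673 TPM and NTN1 10.3 ± 0.455 TPM, while WNT7A, FST and SLIT2 had no read. Cytokine genes were sparse, with 11 of 27 expressed (40.7%, against 56.7% of all protein-coding genes). MIF had 59.3, 68.2 and 77.1 TPM, with 64.1% of its transcript under exons of another gene, CSF1 53.3 ± 2.44 TPM, IL18 34.4 ± 2.22 TPM, LIF 26.3 ± 1.46 TPM and CX3CL1 20.8 ± 0.617 TPM. CLCF1, IL11, CXCL16, CXCL1 and CCL28 lay between 3.15 and 6.79 TPM. The inflammatory genes IL1A, IL1B, IL6, IL33, CSF2, CSF3, TNF, TNFSF10, CXCL2 and CXCL10 had no read, and CXCL8 had 4.

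Proteases and their inhibitors were expressed in 19 of 28 cases (67.9%, against 56.7% of all protein-coding genes). The serine protease gene PRSS23 had 917, 885 and 914 TPM, TIMP1, which inhibits metalloproteinases, 377, 375 and 376 TPM, and PLAU, the urokinase gene, 159, 155 and 162 TPM. The ranges of these did not overlap. TIMP1 stood 51.8-fold above the membrane metalloproteinase gene MMP14. ADAM9 had 113 ± 3.67 TPM, the cystatin gene CST3 104 ± 1.97 TPM, and the cathepsin genes CTSB, CTSL and CTSD 84.5, 63.5 and 50.2 TPM. ADAM10 and ADAM17 overlapped at 30.1 and 29.6 TPM. MMP3, MMP7, MMP13, TIMP4 and SERPINB5 had no read.

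The matrix was uneven. Galectin 1, encoded by LGALS1, had 2557, 2844 and 2753 TPM, the milk fat globule protein gene MFGE8 889, 951 and 925 TPM, and the extracellular chaperone gene CLU 383, 397 and 375 TPM. Proteoglycan genes followed, with SDC1 at 125 ± 9.31 TPM, HSPG2 at 109 ± 10.1 TPM and SDC4 at 56.8 ± 1.69 TPM. LGALS3 had 53.9 ± 1.59 TPM, NID1 51.6 ± 4.25 TPM, AGRN 23.9 ± 1.62 TPM and GPC1 20.6 ± 3.54 TPM, and THBS2, NID2 and FBN2 had no read. Only 9 of 36 collagen genes (25%) were expressed. COL18A1 had 112, 138 and 134 TPM, COL13A1 42.6, 49.7 and 46 TPM, COL5A2 41.6, 44 and 44.2 TPM and COL6A1 11.1, 10.6 and 11.4 TPM. COL6A2, one of the least even of the genes with 100 or more normalised counts, had 5.05, 6.5 and 9 TPM. COL7A1 lay on the line of 1 TPM. COL1A1 was expressed and its partner COL1A2 had no read, and so had the main basement membrane chains COL4A1 and COL4A2 along with COL4A3, COL4A4, COL4A6, COL8A1, COL9A1, COL10A1, COL14A1, COL15A1 and COL25A1.

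Laminin genes were expressed in 6 of 11 cases (54.5%), near the 56.7% of all protein-coding genes. LAMC1 had 52.8 ± 1.5 TPM, LAMB2 46.2 ± 0.821 TPM, LAMC3 11.6 ± 1.31 TPM and LAMA5 9.67 ± 0.961 TPM, the ranges of LAMC3 and LAMA5 overlapping. LAMA1 and LAMA2 had no read. Integrins, which bind these proteins as pairs of an alpha and a beta chain, were expressed in 13 of 26 cases (50%). ITGB1, the beta chain shared by most pairs, had 561, 541 and 541 TPM, 2.5-fold above ITGB5 with 212, 219 and 225 TPM, and ITGB4 of hemidesmosomes had 2.07 ± 0.139 TPM. ITGB3 lay on the line of 1 TPM at 1.23, 0.803 and 0.966 TPM. Among alpha chains the collagen receptor gene ITGA2 led with 177, 173 and 169 TPM. ITGA6, ITGA3 and ITGAV had 69.2, 65 and 62.1 TPM, each overlapping its neighbour, and ITGA5, the partner chain for fibronectin, 35.3 ± 1.19 TPM. ITGA4, ITGA8 and ITGA9 had no read.

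Of 58 receptor tyrosine kinase genes, 26 were expressed (44.8%, against 56.7% of all protein-coding genes) and 12 had no read. EPHB6, an Eph receptor without kinase activity, was the highest with 437, 480 and 490 TPM, followed by EPHA2 with 154, 162 and 159 TPM. Then came the TAM receptor AXL with 133, 137 and 134 TPM and the Wnt receptor RYK with 134, 127 and 124 TPM, whose ranges overlapped. EGFR had 85.9, 83.6 and 81.3 TPM, 6.66-fold above ERBB2 at 12.6 ± 0.623 TPM, while ERBB3 had 1.62 ± 0.279 TPM and ERBB4 no read. AXL stood 1.61-fold above EGFR. EPHB2 had 62.1 ± 1.46 TPM, PTK7 52.6 ± 0.849 TPM, the collagen receptor DDR1 32.7 ± 1.17 TPM, EPHB4 32.4 ± 1.53 TPM, IGF1R 29 ± 0.664 TPM, the HGF receptor MET 27.6 ± 0.822 TPM, MERTK 21.1 ± 0.927 TPM and MST1R 10.5 ± 0.826 TPM. FGFR1 and FGFR4 overlapped at 13.1 and 11.3 TPM. INSR, the insulin receptor, stayed under 1 TPM at 0.711 ± 0.141 TPM, and RET lay across it with 1.25, 1.31 and 0.934 TPM. With the union of exons as the length, the mean TPM of INSR was 1.11. EPHA1, EPHA3, EPHA5, PDGFRA, KIT, CSF1R, FLT1, KDR, NTRK3, MUSK and ROS1 had no read.

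**Figure D3:**
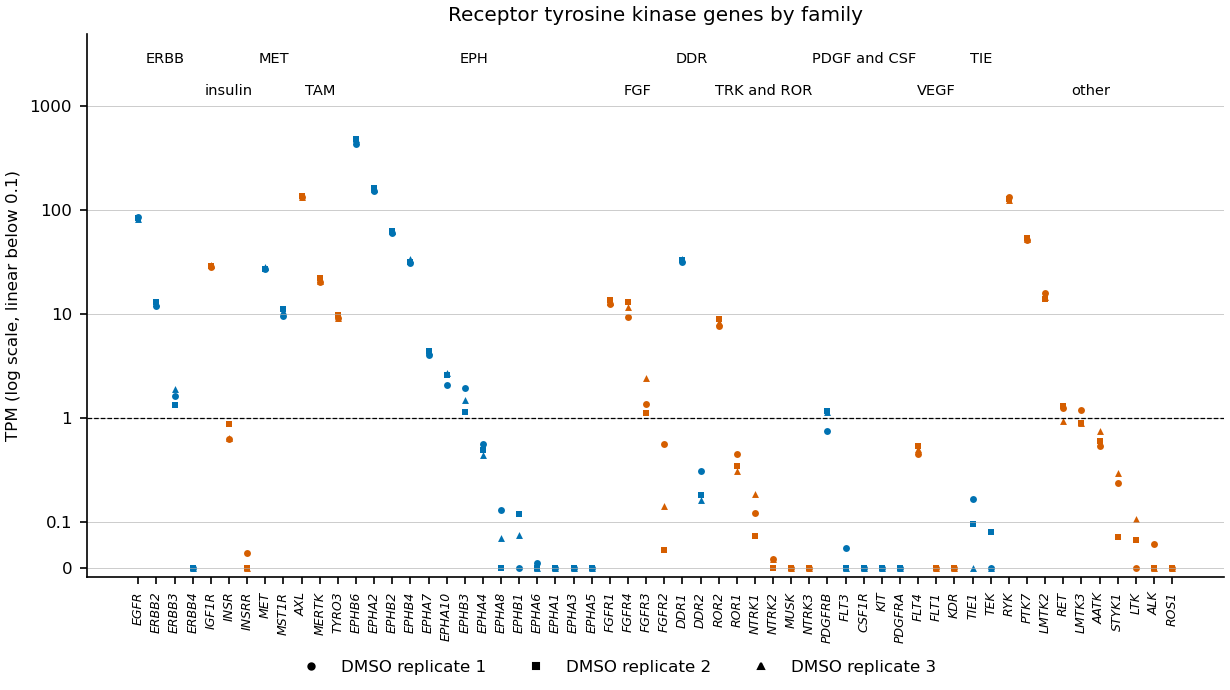
TPM of 58 receptor tyrosine kinase genes in each of the 3 DMSO libraries, grouped by family in alternating colours and ordered by level within a family, on a log axis that is linear below 0.1 TPM. EPHB6 at 469 TPM, AXL, RYK and EGFR stand highest in their groups, and in the PDGF and CSF, VEGF and TIE families only PDGFRB reaches the dashed line of 1 TPM, in replicates 2 and 3.

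All other receptor groups held expressed members. Receptors of the TGF-beta family were expressed in 9 of 14 cases (64.3%, against 56.7% of all protein-coding genes). TGFBR2 had 40.6, 42.6 and 42.1 TPM, and the signalling type I chain TGFBR1 was lower at 13, 13.2 and 12.5 TPM. ACVR1 had 35.4 ± 1.12 TPM, ENG 36.4 ± 1.16 TPM, BMPR1A 28.2 ± 0.786 TPM and BMPR2 22.7 ± 0.896 TPM. ACVR1C and ACVRL1 had no read. Cytokine receptors were expressed in 21 of 24 cases (87.5%), in contrast with the sparse cytokines. TNFRSF12A had 162 ± 6.4 TPM, IFNGR2 114 ± 2.51 TPM, TNFRSF1A 110 ± 3.25 TPM, IL13RA1 95.2 ± 3.95 TPM, and IL6ST, the signalling chain for IL6-type ligands, 36 ± 0.654 TPM. Among Notch, Wnt and Hedgehog receptors LRP5 led at 110, 129 and 135 TPM. NOTCH2 had 55.2 ± 1.63 TPM, LRP6 9.03 ± 0.213 TPM, the Hedgehog receptor gene PTCH1 6.72 ± 0.0878 TPM and NOTCH1 2.82 ± 0.217 TPM.

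G protein-coupled receptor genes were expressed in 31 of 71 cases (43.7%, against 56.7% of all protein-coding genes). GPRC5A, an orphan receptor, had 134, 138 and 133 TPM, the protease-activated receptor F2RL1 108, 107 and 104 TPM, the adenosine receptor ADORA2B 112, 103 and 102 TPM, and the neurotensin receptor NTSR1 93.6, 101 and 106 TPM. ADGRE5 had 93.3 ± 4.67 TPM, LGR4 46.5 ± 1.77 TPM, the lysophosphatidic acid receptor LPAR3 45.6 ± 1.66 TPM, F2R 37.6 ± 1.47 TPM, FZD7 34.2 ± 0.592 TPM and GPRC5C 29.5 ± 2.29 TPM. PTGER4, LPAR2, OXTR and HRH1 had 19.3, 9.15, 9.91 and 8.22 TPM. Receptors of gut peptides were largely absent, with CCKAR, CCKBR, SCTR, VIPR2, SSTR1, SSTR3, SSTR4 and AGTR1 at 0 reads, as were CXCR1, CXCR2, BDKRB1, BDKRB2, EDNRB, LGR5, FZD10, F2RL3, LPAR4, S1PR1, S1PR4 and ADORA3. Nuclear receptors were expressed in 21 of 48 cases (43.75%), none above 40 TPM. ESRRA had 37.8 ± 3.46 TPM, NR2F6 35.9 ± 1.23 TPM, RXRB 33.7 ± 0.73 TPM, RARG 30.2 ± 2.05 TPM and PPARD 25.7 ± 1.34 TPM, and the glucocorticoid receptor NR3C1 had 8.64 ± 0.0937 TPM. The steroid receptors ESR1, ESR2 and PGR had no read, nor had RARB, NR1H4, NR1I2, NR1I3, HNF4A, RXRG, ESRRB, ESRRG, NR3C2, NR0B1 and NR0B2.

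All 31 housekeeping genes were expressed. The 20 genes commonly used as references in quantitative PCR ranged over nearly 3 orders of magnitude. GAPDH had 7877, 7791 and 7981 TPM, ACTB 6654, 6724 and 6821 TPM, RPLP0 4585, 4393 and 4536 TPM, B2M 1427 ± 44.9 TPM, YWHAZ 463 ± 11.9 TPM, TFRC 397 ± 0.738 TPM, HPRT1 107 ± 3.7 TPM, TBP 46.8 ± 2.96 TPM and GUSB 45.1 ± 1.25 TPM. SDHA was the lowest at 9.11 ± 0.402 TPM, with 69.4% of its transcript under exons of another gene. The 11 genes with even levels across tissues were led by PSMB4 at 892 ± 11.1 TPM and VCP at 557 ± 5.49 TPM, the means of C1orf43, CHMP2A and RAB7A lay between 344 and 374 TPM, and SNRPD3 was the lowest at 18.5 ± 0.614 TPM. Carriers of nutrients were led by the nucleoside transporter gene SLC29A1, which also carries gemcitabine, at 399, 390 and 397 TPM. SLC38A2 had 205 ± 7.78 TPM, SLC1A5 160 ± 4.89 TPM, SLC16A3 141 ± 13.1 TPM and SLC3A2 104 ± 1.18 TPM, whereas the glucose carrier gene SLC2A1 had 39.1 ± 2.05 TPM, SLC2A3 had 1 read and SLC2A2 none.

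MYOF, the target studied in the other libraries, had 509, 497 and 485 TPM under DMSO, and a mean of 20530 normalised counts placed it among the 100 most abundant genes. Its ferlin relative DYSF had 13 reads and 0.108 TPM, OTOF 21 reads, FER1L4 28, FER1L5 1 and FER1L6 none, so MYOF carried nearly all ferlin RNA. Partners of membrane repair were abundant. ANXA2 had 3390, 3244 and 3297 TPM, its binding partner S100A10 561 ± 12.8 TPM, S100A11 774 ± 41.1 TPM, ANXA5 418 ± 3.98 TPM, ANXA1 205 ± 11.9 TPM and ANXA6 87 ± 1.35 TPM. The caveolar gene CAVIN1 had 247 ± 7 TPM and the membrane-remodelling genes EHD2 and EHD1 61.9 ± 2.87 and 42.4 ± 1.62 TPM.

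Of 22 genes altered in pancreatic cancer, 17 were expressed. GNAS had 923, 900 and 893 TPM, ARID1A 66.8, 68.4 and 62.6 TPM and MYC 41.1, 41.2 and 41.9 TPM. SMAD4, the shared mediator of TGF-beta signalling, was the lowest expressed gene of the list at 5.17 ± 0.288 TPM. RB1, STK11, PALB2, MAP2K4 and ATM lay between 24.9 and 33.4 TPM, BRCA1, CDKN1A, KDM6A and BRCA2 between 7.59 and 14.6 TPM, and RNF43, with 71% of its transcript under exons of another gene, had 2 reads. MYCN had no read. TGFBR1 and TGFBR2 are given above.

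CDKN2A, which encodes the inhibitors p16 and p14ARF, and its neighbour CDKN2B had 0 reads in the 3 DMSO libraries and in the 9 others. The antisense gene CDKN2B-AS1 had none under DMSO either, and the adjoining MTAP, a gene of purine salvage expressed in most tissues, had 2 reads and 0.018 TPM under DMSO and 15 in the other libraries. No exon of another gene on the same strand covers CDKN2A or CDKN2B, and 7.63% of MTAP is covered. Genes on either side in the same chromosome band or beside it were expressed. KLHL9 had 10.4, 10.4 and 9.6 TPM, FOCAD 9.15, 8.33 and 8.97 TPM, CAAP1 10.7, 12 and 10.5 TPM, PLAA 16.3, 16.3 and 15.5 TPM, IFT74 5.12 ± 0.422 TPM, DMRTA1 1.33 ± 0.163 TPM and MLLT3 1.05 ± 0.143 TPM. HACD4 had 26 reads, IFNE 0.305 TPM, and IFNA1 and ELAVL2 had no read. Loss of this locus has been described in PANC-1, but DNA was not measured here and its part in these values was not tested.

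The highest run of neighbouring genes lay on chromosome 19. When the 10798 windows of 21 neighbouring expressed protein-coding genes along the genome were ranked by their median TPM, the highest had 280 TPM. It was shared by 4 overlapping windows, of which the first ran from EIF3K to RPS16. In each of the 3 libraries the highest window overlapped this first one. The next windows elsewhere had 107 TPM on chromosome X (IDH3G to UBL4A), 106 TPM on chromosome 7 (PSMA2 to CCM2) and 105 TPM on chromosome 11 (RELA to YIF1A). The stretch was then bounded at EIF3K and AKT2 after these values were seen, at positions 38619082 to 40285536 of GRCh38 chromosome 19, a length of 1666455 bases. It holds 56 protein-coding genes, of which 37 were expressed with a median of 197, 223 and 213 TPM in replicates 1 to 3. The stretch of the same length before it had 25 expressed genes of 33 with a median of 9.77 TPM, the one after it 24 of 52 with 22.8 TPM, and all other protein-coding genes 22.7 TPM. The stretch before it holds many zinc finger genes, such as ZNF420 at 8.25 TPM and ZNF569 at 23.6 TPM. It thus differs in kind of gene as well as in place. At or above 100 TPM were 24 of the 37 (64.9%), against 14.8% of other expressed protein-coding genes. These 56 genes took 3.35 ± 0.0647% of all normalised counts, and 12 of the 100 most abundant genes and 5 of the first 30 lay among them. Since the stretch was picked for its level, these figures are a description.

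RPS16 had 26355, 27453 and 27674 TPM, the highest level of any gene in the table. FBL, which encodes the rRNA methyltransferase fibrillarin, had 7303, 7141 and 7214 TPM, the proteasome ATPase gene PSMC4 4075, 4080 and 4105 TPM and the initiation factor gene EIF3K 3838, 3767 and 3803 TPM. PAF1, a subunit of an elongation complex on RNA polymerase II, had 1871, 1876 and 1830 TPM, the actin crosslinker gene ACTN4 1484, 1623 and 1592 TPM, AKT2, a kinase of insulin and growth factor signalling, 1154, 1222 and 1231 TPM and the elongation factor gene SUPT5H 1163, 1194 and 1153 TPM. The Mediator gene MED29 had 782, 790 and 810 TPM, TIMM50 of mitochondrial import 655, 667 and 660 TPM and SAMD4B 504, 524 and 528 TPM. The ends were set at high genes, so the step there follows from the choice. MAP4K1, just before EIF3K, had 4.59 TPM, and C19orf47 and PLD3, just after AKT2, had 15 ± 0.936 and 34.8 ± 3.29 TPM. Farther outside, PSMD8 and SPINT2 had 525 and 408 TPM, and inside TTC9B near AKT2 had 1.55 TPM. Tissue-restricted genes inside the stretch had no read, among them the interferon lambda genes IFNL1, IFNL2, IFNL3 and IFNL4, the placental galectin genes LGALS13, LGALS14 and LGALS16, CLC, LEUTX and the acinar gene SYCN. DLL3, a Notch ligand of neuroendocrine cells, had 104, 92.7 and 104 TPM.

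**Figure D4:**
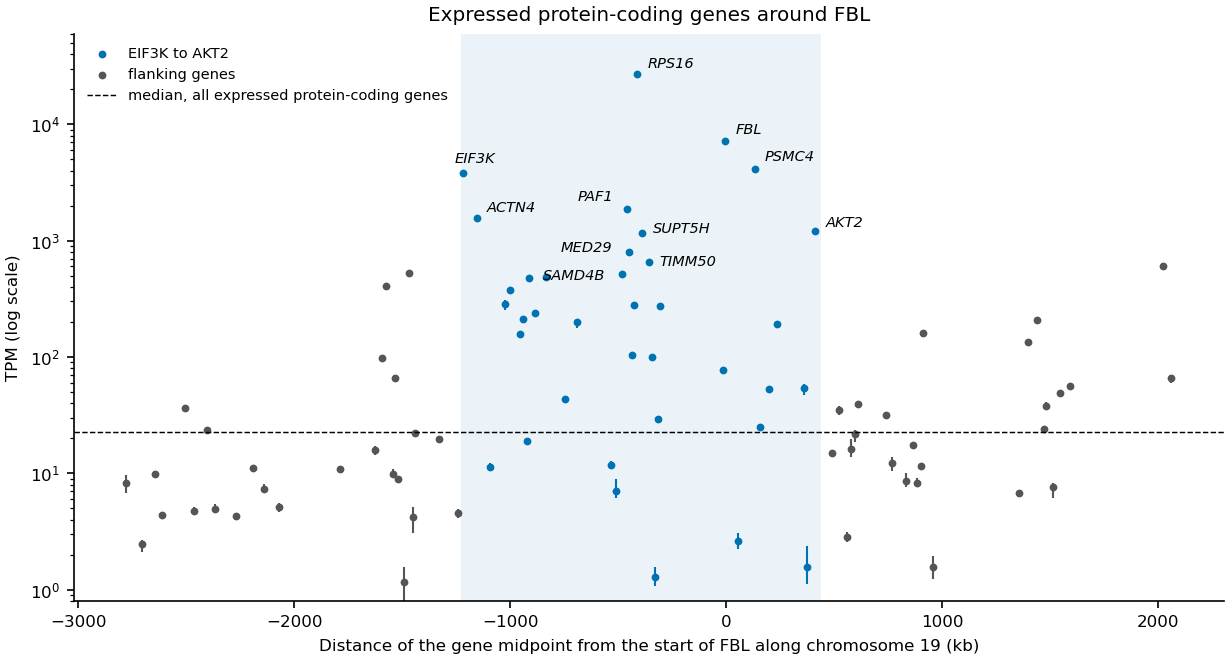
Mean TPM, on a log axis, of expressed protein-coding genes by the distance of their midpoint from the start of FBL on chromosome 19, with vertical bars from the lowest to the highest of the 3 DMSO libraries. The shaded genes from EIF3K to AKT2 have a median of 211 TPM, above the dashed line at 22.8 TPM for all expressed protein-coding genes, and the flanking genes lie mostly under it.

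Genes of the stretch were also set beside the other subunits of the complexes they belong to, which lie elsewhere in the genome and are needed together with them. In TPM, RPS16 stood 22.9-fold above the median of 75 other ribosomal protein genes, of which RPS18 was the highest at 4698 TPM. PSMC4 stood 23.9-fold above the median of the other 5 proteasome ATPase genes, whose highest, PSMC3, had 584 TPM. FBL stood 27-fold above the median of its box C/D partners NOP56, NOP58 and SNU13, at 411, 267 and 196 TPM, and PAF1 27.4-fold above the median of CTR9, LEO1, CDC73, RTF1 and WDR61, at 113, 67.9, 37.7, 52 and 119 TPM. EIF3K stood 13.6-fold above 11 other eIF3 genes, MED29 35.2-fold above 6 other Mediator tail genes, ACTN4 7.82-fold above ACTN1 and TIMM50 4.51-fold above 5 other import genes. AKT2 at 1202 TPM stood above its relative AKT1 at 154 TPM. In each of these 9 sets the gene from chromosome 19 was the highest in every library, and by mean it was also the highest with the union of exons or the longest transcript as the length. The folds depend on the length used. With the union of exons they were 38.4 for PSMC4, 55.1 for MED29, 24.5 for ACTN4 and 10.04 for TIMM50, and with the longest transcript 13.3 for RPS16, 39.3 for PSMC4 and 8.42 for TIMM50. SUPT5H is left out of these sets, because its partner SUPT4H1 had 1.37 TPM with 89% of its transcript under exons of another gene. PSMD8, which lies just outside the stretch, had 525 TPM, 2.49-fold above the median of 10 other proteasome genes, and was not the highest of them. The partners were chosen after the stretch was seen. DNA copy number was not measured, and its part in these levels was not tested.

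**Figure D5:**
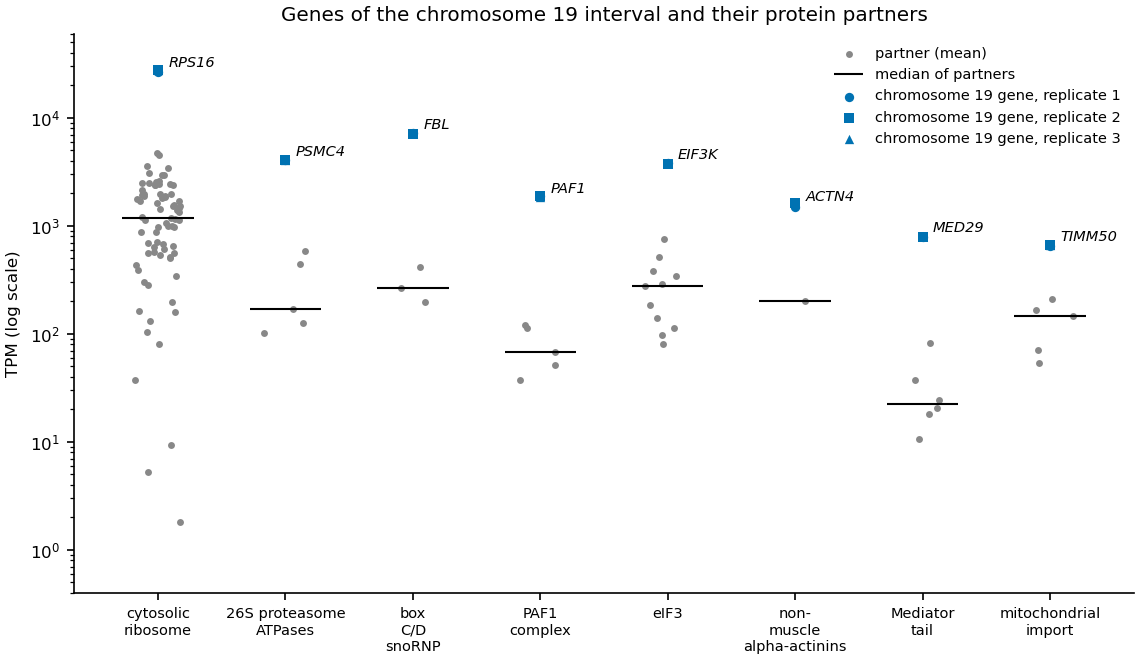
TPM, on a log axis, of genes of the chromosome 19 stretch in each DMSO library beside the mean TPM of their partners in the same complex or family, whose median is the horizontal line. Each gene shown was picked from the most abundant of the stretch. It lies above all its partners, from 4.51-fold over their median for TIMM50 to 35.2-fold for MED29 among the sets shown.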

How the data were processed

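The authors sequenced stranded mRNA libraries of PANC-1 cells and, per the study's methods, aligned and quantified them on GRCh38 with STAR and Salmon in the nf-core RNA-seq pipeline and Ensembl release 97. The deposited table holds a normalised signal per gene, read counts divided by 1 size factor per library. Salmon estimates need not be whole. They may have been rounded before the DESeq2 analysis that the study's methods also name, which was not tested. Dividing each library by its smallest value above 0 gave whole reads for 100% of values (tolerance 0.001 reads), and all 12 columns matched a sample. TPM was computed here from these reads and the annotated length of the main transcript (GENCODE 44, 60261 of 60617 identifiers matched, the rest holding 0.0538% of DMSO reads), without a correction for fragment length, which understates short genes. Nothing was compared between conditions, so no test was run. Genes were named by rule: the 30 most abundant, up to 5 of the highest members of each list group (10 in secreted groups), members without a read or next to 1 TPM, and all keratins and members of the cancer, 9p21, fibroblast and membrane repair lists. Others were named after their values were seen, and some genes are not reported here. Lists and members were chosen with earlier results of these data known, and the overlap of exons, the chromosome 19 stretch and its partners after the values were seen. The code was tested on simulated data. Python 3.11.15, pandas 2.3.3, R 4.3.3 and edgeR 4.0.16 (for an alternative scaling) were used.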

Additional observations from a re-analysis of the deposited data

How the results depend on the processing

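Of 237 alternative values of the summary results, 16 moved a count by over 1.5 times or another value by over 1 SD. The 100 most abundant genes held 32.2% of TPM instead of 19.9% of normalised counts, and 18.5% without mitochondrially encoded genes. From 0.5 TPM, the genes counted as expressed were 2 of the leukocyte list, 2 of the acinar list and 7 of the endocrine list, and from a mean normalised count of 5 they were 3 acinar, 8 endocrine and 18 collagen genes. The median coefficient of variation was 7.42% over all genes with a read in every DMSO library and 3.55% to 4.43% with each DMSO replicate left out. A spread over 2 libraries tends to be lower than over 3, so this fall does not show that a replicate mattered. The median of the chromosome 19 stretch was 158 TPM with the union of exons, 140 TPM with the longest transcript, 280 TPM from CAPN12 to TIMM50 and 173 TPM without its 5 highest genes. These settings of the stretch were chosen after seeing the data, and the other protein-coding genes then had 24.1 TPM with the union and 25 TPM with the longest transcript. The union of exons moved 114 of 253 expressed named genes by over 1.5 times, RPS16 to 11435 TPM among them, and the longest transcript moved 17. The union took 4 named genes and the longest transcript 5 up to 1 TPM or more, and neither took one under it. No paired analysis was possible because no groups were compared. Depth limits genes with under about 3 reads over all 3 libraries, and short genes and genes that share exons are less certain than the spread shows.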
